A study of Homo sapiens with 12 samples.

Results

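The 47 genes described here encode the enzymes that make, activate and burn fatty acids, together with the proteins that store them as triglyceride in lipid droplets. They were taken by name from the 60666 genes listed for Huh7, an established human hepatocellular carcinoma line, and every one of them was matched. By role they fall into 11 genes of fatty acid synthesis, elongation and desaturation, 4 long-chain acyl-CoA synthetases, 17 genes of mitochondrial oxidation, 2 genes of ketone body metabolism, 5 genes of peroxisomal oxidation, 7 genes of triglyceride synthesis, storage and lipolysis, and PPARA, a nuclear receptor that switches on oxidation genes. The genes are named by function, and the rule itself uses no measured value.

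RNA was sequenced from 3 libraries of Huh7 cells carrying a control construct (Huh7 control) and 3 libraries of Huh7 cells with lentiviral knockdown of FAM111B, a serine protease, by a short hairpin RNA (Huh7 shFAM111B). Both lines were stably transduced and selected with puromycin, and both were grown in high-glucose medium with foetal bovine serum. One shFAM111B construct is given, no rescue library was analysed here, and nothing states that the 3 libraries of a group came from separate cultures, so that p-values measure only the spread between these libraries. The question was how the expression of genes for making, oxidising and storing fatty acids differed between the groups.

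In a liver cell, acetyl-CoA drawn from citrate is carboxylated to malonyl-CoA and built into palmitate, which is then lengthened and desaturated. A fatty acid must be joined to coenzyme A before it can be used, and it enters the mitochondrion as a carnitine ester made by CPT1, the step that malonyl-CoA inhibits. Very long and branched chains are shortened in peroxisomes first, and excess acyl-CoA is esterified to triglyceride and kept in droplets coated by perilipins.

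Levels are given in TPM, which the authors deposited for each library. TPM divide the reads of a gene by its length and scale them to a fixed total, so they keep no sequencing depth and a change in an abundant class of RNA shifts all other genes. The 6 libraries summed to 978634 to 997094 TPM. RNA of the mitochondrial chromosome made up 196140 to 201464 TPM in control libraries and 73237 to 78883 TPM in shFAM111B libraries. Genes for ribosomal RNA held 1056 to 2850 TPM in the controls, 35926 and 53091 TPM in shFAM111B replicates 1 and 2, and 2567 TPM in shFAM111B replicate 3, so that this last library stood apart from its group. FAM111B itself had 7.84, 8.29 and 7.99 TPM in the controls and 0.96, 1.13 and 0.84 TPM in the shFAM111B libraries (log2 fold change -2.20). All 10 hepatocyte markers were detected, with summed levels of 28630 to 29130 TPM in control and 31210 to 35340 TPM in shFAM111B libraries. Of these markers TTR, APOA1 and APOA2 rose under every scaling, APOB, FGB and AHSG fell under every scaling, ALB, SERPINA1 and TF fell with the deposited TPM, and AMBP did not pass the test. Fibroblast markers summed to at most 16.53 TPM and endothelial markers to at most 3.49 TPM, with KDR at 0. Bile duct markers summed to 119.2 to 125.1 TPM in control and 208.2 to 243.6 TPM in shFAM111B libraries, AFP and GPC3 together to 7662 to 8030 and 22730 to 25900 TPM, and immune markers, mainly CD68 and LYZ, to 276.3 to 283.8 and 308.3 to 340.7 TPM. Of the bile duct markers KRT19 rose from 31.0 to 166.2 TPM on average and SOX9 fell from 58.5 to 22.1 TPM, with KRT7 near 0. The part of these shifts in the results was not tested, and fewer cells of a kind cannot be told apart from less RNA per cell in such bulk samples.

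Genes were compared on log2(TPM + 1) with limma's moderated test, and a gene is said to have risen or fallen in shFAM111B cells where its p-value, adjusted by the Benjamini-Hochberg method over the 14394 tested genes, was under 0.05. The median tested gene fell by 0.36 on this scale, and this shift was between -0.56 and 0.17 under 5 other scalings. A direction is therefore called robust to scaling only where the gene passed the threshold the same way under all 6 scalings. Genes with longer transcripts had lower log2 fold changes, with a Spearman correlation of -0.459 across 14263 genes and -0.29 across the 47, which is a description since genes are not replicates. Values with the trend in transcript length and level removed are therefore given for genes whose call they change.

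Of the 47 genes, 9 rose, 28 fell and 10 did not pass the test. Among all tested genes 21.1% rose and 50.9% fell, against 19.1% and 59.6% of the fatty acid genes. Under every scaling 8 of the 47 rose and 14 fell, where 16.4% and 32.5% of the 12024 genes with a value under all 6 did. With a 2-fold limit and an unadjusted P under 0.05, 3 were higher and 9 lower, against 6.82% and 23.7% of all genes. The groups did not overlap in 39 of the 47, against 75.2% of all genes. These shares lie near those of the transcriptome, and the median of the 47, -0.39, lay close to that of all genes, so the list as a whole did not stand apart. Within synthesis, mitochondrial oxidation, peroxisomal oxidation and storage, some genes rose and others fell, while no gene of activation or ketone body metabolism rose.

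**Figure D1:**
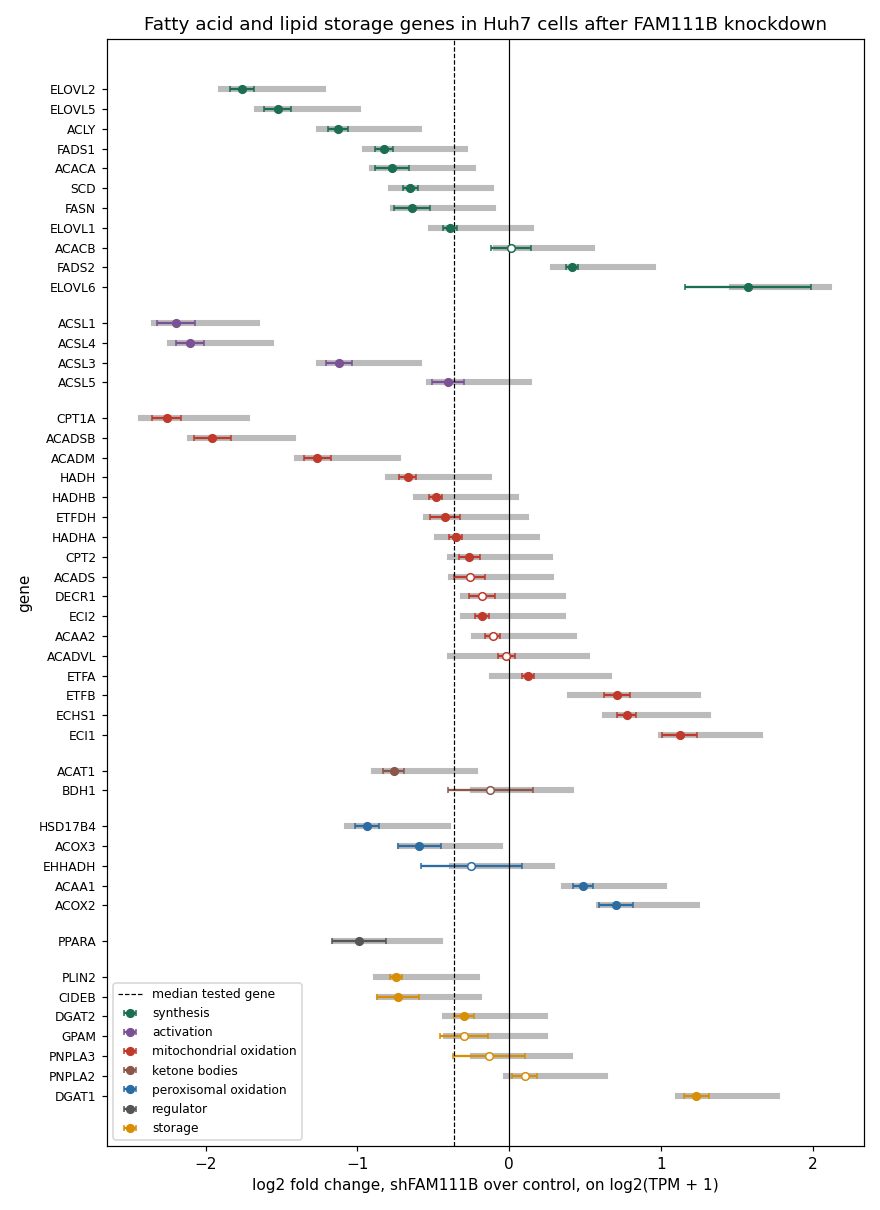
Log2 fold change of each of the 47 genes in shFAM111B over control libraries on the log2(TPM + 1) scale, with points and thin bars for the estimate and its standard error (n = 3 per group), filled points for genes that rose or fell, and thick grey bars for the lowest to highest value over 6 scalings. CPT1A, ACSL1 and ACSL4 lie below -2 and ELOVL6, DGAT1 and ECI1 above 1, while many genes near the dashed line of the median gene have grey bars that cross 0.

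Fatty acid synthesis had 8 genes that fell and 2 that rose of 11, where 50.9% of all tested genes fell and 21.1% rose. ACLY, ELOVL2, ELOVL5 and FADS1 fell and ELOVL6 and FADS2 rose under all 6 scalings. The clearest split was between elongases. ELOVL2 and ELOVL5, which lengthen polyunsaturated fatty acids, fell, while ELOVL6, which lengthens palmitate, was higher in each shFAM111B library than in any control.

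ELOVL2 (ENSG00000197977, chromosome 6 from 10980759 to 11044314 on GRCh38) had 39.65, 37.41 and 34.46 TPM in the controls (replicates 1 to 3 in order, as in all such triplets) and 9.73, 10.62 and 10.45 TPM in the shFAM111B libraries. It fell by 1.76 on the log2 scale (standard error, SE, 0.0777, adjusted p = 3.99e-06). ELOVL5 went from 66.56, 57.34 and 54.54 TPM to 19.76, 21.07 and 18.97 TPM (log2 fold change -1.53, SE 0.0877, adjusted p = 8.67e-06). In both genes the highest shFAM111B library lay far under the lowest control. ELOVL6 (ENSG00000170522, chromosome 4 from 110045846 to 110199199) had 14.56, 20.55 and 9.45 TPM in the controls and 77.74, 42.33 and 26.13 TPM in the shFAM111B libraries. The groups of ELOVL6 did not overlap, but its levels spread about 3-fold within the shFAM111B group, from a mean of 14.9 ± 5.56 TPM to 48.7 ± 26.4 TPM (SD, n = 3 each). Its log2 fold change was 1.57 (SE 0.414, adjusted p = 0.0113), between 1.17 and 1.94 when any library was left out, with adjusted p of at most 0.0391. The pair ELOVL6 over ELOVL5, chosen after the values were seen, stood at 0.219, 0.358 and 0.173 in the controls and 3.93, 2.01 and 1.38 in the shFAM111B libraries, so that the more abundant of these elongases on the length-corrected TPM scale changed.

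ELOVL1, which extends saturated very long chains, went from 87.3 ± 0.927 to 66.4 ± 1.59 TPM (SD, n = 3) and fell with the TPM as deposited, but its log2 fold change turned positive, up to 0.14, under median-of-ratios, upper-quartile and median-gene scaling. With the length trend removed it fell by 0.50 (adjusted p = 0.0001).

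The desaturases FADS1 and FADS2 act in turn on the same polyunsaturated chains, FADS2 at the first desaturation and FADS1 at a later one. Their genes are neighbours on chromosome 11 and are read in opposite directions (FADS1 from 61799625 to 61829318 on the minus strand, FADS2 from 61792980 to 61867354 on the plus strand). FADS1 fell from 54.04, 52.54 and 49.41 TPM to 29.94, 28.81 and 28.13 TPM, a log2 fold change of -0.82. FADS2 rose from 100.96, 97.92 and 99.64 TPM to 132.45, 134.04 and 132.42 TPM, a log2 fold change of 0.41. Each gene kept its direction under every scaling and with the length trend removed. The ratio of FADS2 to FADS1 within a library, which multiplying a library by a factor does not alter, was 1.87, 1.86 and 2.02 in the controls and 4.42, 4.65 and 4.71 in the shFAM111B libraries. This 2.40-fold difference gave an exact two-sided permutation p of 0.1, the smallest that 3 libraries against 3 can give (0.125 adjusted over the 5 pairs tested). The annotated exons of FADS1 and FADS2 share 490 bases on opposite strands, and whether the reads were counted by strand is not given in the sources used here. FADS2 also has a pseudogene copy, FADS2P1.

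RefSeq windows from 250 bases before to 50 bases after a gene's start (GRCh38.p14) were available for 38 of the 47 genes. The windows of FADS1 and of the FADS2 start nearest to it, 599 bases apart, are shown because these neighbours moved in opposite directions. Capitals mark the GC box (GGGCGG on either strand) and the CCAAT box (CCAAT on either strand). The FADS1 window is chr11:61816954-61817253 on the minus strand and the FADS2 window chr11:61816154-61816453 on the plus strand.
FADS1: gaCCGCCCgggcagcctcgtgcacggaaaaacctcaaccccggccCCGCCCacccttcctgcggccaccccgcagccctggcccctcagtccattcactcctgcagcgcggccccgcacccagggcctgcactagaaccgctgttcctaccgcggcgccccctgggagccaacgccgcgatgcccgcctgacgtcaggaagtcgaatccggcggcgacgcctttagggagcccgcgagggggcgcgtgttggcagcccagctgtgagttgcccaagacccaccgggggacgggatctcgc
FADS2: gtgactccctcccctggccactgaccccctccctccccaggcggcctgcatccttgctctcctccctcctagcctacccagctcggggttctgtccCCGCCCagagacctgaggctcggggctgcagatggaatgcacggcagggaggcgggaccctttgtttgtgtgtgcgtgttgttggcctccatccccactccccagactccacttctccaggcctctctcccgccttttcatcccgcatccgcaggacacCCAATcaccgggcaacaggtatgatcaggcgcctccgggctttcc
Both windows hold a GC box, and of the pair FADS2 alone holds a CCAAT box. Among the 38 genes, 34 had a GC box (89.5%), against 75.9% of the 10126 tested genes with a window and 48.3% of all 27305. A CCAAT box was present in 16 (42.1%), against 43.7% of tested genes. The sterol regulatory element TCACNCCAC was found in ACSL1 and PNPLA2, 5.3% of the 38 against 1.5%, and the E-box CACGTG in ELOVL5 and PLIN2, 5.3% against 12.7%. The direct repeat of AGGTCA with 1 base between, the type of site PPAR receptors bind, was found in 0 of the 38 windows and in 8 of all 27305. These matches describe letters in these windows and no binding was measured.

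The enzymes of the cytosolic route to palmitate were lower in shFAM111B cells by smaller amounts, and apart from ACLY their calls depended on the scaling. ACLY, which cleaves citrate to acetyl-CoA, fell from 104.1, 106.5 and 106.54 TPM to 47.75, 51.66 and 44.39 TPM (log2 fold change -1.13, SE 0.064, adjusted p = 8.32e-06). FASN, fatty acid synthase, went from 129.9 ± 4.45 to 83.8 ± 13.7 TPM (SD, n = 3), and SCD, which makes oleate from stearate, from 189.0 ± 5.36 to 120.0 ± 4.86 TPM (SD, n = 3). With the deposited TPM both fell, by 0.64 and 0.65 on the log2 scale, and under the scaling that moved them least they fell by 0.11 and 0.12, with adjusted p of 0.447 and 0.0695. With the length trend removed FASN was at -0.05 (adjusted p = 0.725) and SCD fell by 0.22. FASN and SCD kept their proportion, with a ratio of SCD to FASN of 1.46 ± 0.0782 in control and 1.45 ± 0.204 in shFAM111B libraries (SD, n = 3, exact two-sided permutation p = 0.9). SCD has a processed pseudogene, SCDP1.

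The acetyl-CoA carboxylases differed from each other. ACACA, the cytosolic form that feeds synthesis, went from 14.73, 17.79 and 16.48 TPM to 10.05, 9.35 and 8.07 TPM and fell by 0.77 on the log2 scale, though with the length trend removed its estimate was 0.27. ACACB, the form at the mitochondrial surface, had 3.15, 2.98 and 2.74 TPM in control and 2.95, 3.49 and 2.56 TPM in shFAM111B libraries, with overlapping groups and a log2 fold change of 0.01 (adjusted p = 0.948). Relative to the median gene ACACB was thus higher, and it passed the test upwards with median-gene scaling (log2 fold change 0.54), with quantile normalization (0.37) and with the length trend removed (0.87, adjusted p = 0.000847), while its estimate was -0.09 with protein-coding nuclear genes rescaled. The ratio of ACACA to ACACB was 4.68, 5.97 and 6.01 in the controls and 3.41, 2.68 and 3.15 in the shFAM111B libraries (exact permutation p = 0.1). The transcripts of ACACA and ACACB are of similar length, 9961 and 9360 bases.

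All 4 long-chain acyl-CoA synthetases fell, where 50.9% of all tested genes fell. This was the class with the lowest median log2 fold change, -1.61, or -1.25 relative to the median gene. Of the 7 tested genes listed under uptake and other acyl-CoA synthetases, 3 rose, including ACSF2 (0.93), 0 fell and 4 did not pass. ACSL1, ACSL3 and ACSL4 fell under every scaling, as did 32.5% of the genes with a value under each, and ACSL5 did not. These enzymes join long-chain fatty acids to coenzyme A, ACSL1 being a major liver form and ACSL4 preferring arachidonate. ACSL4 (ENSG00000068366, chromosome X from 109624244 to 109733403) had the highest TPM of the 4 in the controls, with 125.77, 113.63 and 103.28 TPM in the controls and 25.87, 28.12 and 23.41 TPM in the shFAM111B libraries. It fell by 2.10 on the log2 scale (SE 0.0949, adjusted p = 4.12e-06).

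ACSL1 (ENSG00000151726, chromosome 4 from 184755595 to 184826818) had 50.43, 42.94 and 40.29 TPM in the controls and 9.14, 10.2 and 7.55 TPM in the shFAM111B libraries (log2 fold change -2.20, SE 0.127, adjusted p = 8.86e-06). ACSL3, found on the endoplasmic reticulum and lipid droplets, fell from 56.5 ± 3.22 to 25.4 ± 2.48 TPM (SD, n = 3) (log2 fold change -1.12, SE 0.0859, adjusted p = 2.72e-05). No shFAM111B library reached the lowest control in ACSL1, ACSL3 or ACSL4. ACSL5, the least abundant at 6.63 ± 0.655 and 4.75 ± 0.117 TPM (SD, n = 3), fell by 0.41 (SE 0.104, adjusted p = 0.0103) with the deposited TPM, but its estimate was 0.10 with quantile normalization, 0.13 with median-gene scaling and 0.12 with the length trend removed. The summed level of the class was 205.8 to 242.6 TPM in control and 58.25 to 70.44 TPM in shFAM111B libraries.

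**Figure D2:**
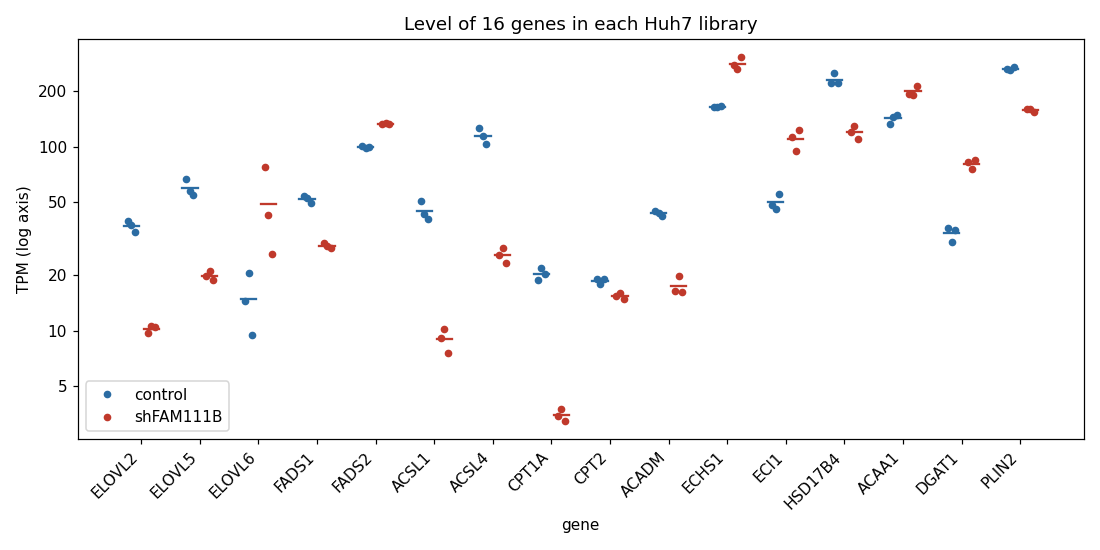
TPM of 16 genes in each control library (blue) and each shFAM111B library (red) on a log axis, with a horizontal line at the mean of each group of 3. The groups of each plotted gene are separated, FADS2, ELOVL6, ECHS1, ECI1, ACAA1 and DGAT1 upwards and the other 10 downwards. CPT2 lies downwards only with the TPM as deposited and protein-coding nuclear genes rescaled. ELOVL6 shows the widest spread within a group. Only genes with separated groups are plotted, and genes with overlapping groups, such as ACADVL, EHHADH and PNPLA2, are not. The groups did not overlap in 83.0% of the fatty acid genes and 75.2% of all tested genes.

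Mitochondrial oxidation did not move in one direction. Of its 17 genes 4 rose, 9 fell and 4 did not pass the test. Rises and falls were likewise mixed among all tested genes, of which 21.1% rose and 50.9% fell. Under every scaling ECHS1, ECI1 and ETFB rose and CPT1A, ACADM and ACADSB fell. Of the genes with a value under every scaling, 16.4% rose and 32.5% fell in that way. The median log2 fold change of the class was -0.26, which is 0.10 above that of the median gene. The largest fall of all 47 genes was that of CPT1A, the liver carnitine palmitoyltransferase that commits long-chain acyl groups to the mitochondrion.

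CPT1A (ENSG00000110090, chromosome 11 from 68754620 to 68844410) had 18.92, 21.88 and 20.42 TPM in the controls and 3.43, 3.75 and 3.24 TPM in the shFAM111B libraries. It fell by 2.26 on the log2 scale (SE 0.0955, adjusted p = 3.57e-06), and by 1.38 with the length trend removed. CPT2, which frees the acyl group again on the inner side of the membrane, was near 19.06, 17.94 and 19.03 TPM in the controls and 15.38, 15.93 and 14.87 TPM in the shFAM111B libraries. Its fall of 0.26 with the deposited TPM turned into estimates of 0.13 to 0.27 under 4 other scalings and 0.50 (adjusted p = 0.000527) with the length trend removed. The ratio of CPT1A to CPT2, chosen after the values were seen, went from 0.993, 1.22 and 1.07 to 0.223, 0.235 and 0.218. In the controls the ratio was near 1, and in each shFAM111B library CPT1A was the scarcer of the pair.

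Between CPT1A and CPT2 the acylcarnitine crosses the inner membrane through the carrier SLC25A20, which is not among the 47 genes and was named after its values were seen. SLC25A20 rose from 52.11, 47.63 and 45.39 TPM to 80.53, 86.03 and 82.43 TPM, under every scaling (log2 fold change 0.77). CPT1A was thus lower and the carrier higher, and the direction of CPT2 depended on the processing. Of the other carnitine genes read, SLC22A5 (-1.16) fell under every scaling. CPT1B (-0.64) fell with the deposited TPM but not under every scaling.

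The acyl-CoA dehydrogenases open each round of oxidation and are specific for chain length. ACADM, for medium chains, fell from 44.92, 43.42 and 41.92 TPM to 16.49, 19.89 and 16.27 TPM (log2 fold change -1.26, SE 0.0885, adjusted p = 1.87e-05). ACADSB, for short branched chains from isoleucine, fell from 32.38, 30.66 and 26.09 TPM to 7.16, 7.69 and 5.92 TPM (log2 fold change -1.96, SE 0.12, adjusted p = 1.12e-05). ACADVL, for very long chains, and ACADS, for short straight chains, did not pass the test. ACADVL had the highest mean TPM of the 47 genes in the controls, with overlapping groups at 452.33, 461.06 and 490.56 TPM against 475.3, 431.43 and 478.66 TPM, and its sign depended on the scaling, from -0.39 with quantile normalization to 0.51 with median-gene scaling. ACADS was at 18.3 ± 1.67 and 15.2 ± 1.45 TPM (SD, n = 3, adjusted p = 0.0504). In shFAM111B cells ACADVL therefore exceeded ACADM by a wider margin than in control cells.

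HADHA and HADHB encode the subunits of the mitochondrial trifunctional protein, which carries out the later steps on long chains. Both went down by a similar small amount, HADHA from 88.5 ± 0.669 to 69.1 ± 0.981 TPM and HADHB from 93.0 ± 2.35 to 66.1 ± 0.689 TPM (SD, n = 3). With the deposited TPM both fell, by 0.35 and 0.49 on the log2 scale, but the estimate of HADHA was 0.06 to 0.18 under median-of-ratios, upper-quartile and median-gene scaling and that of HADHB 0.05 under median-gene scaling. With the length trend removed HADHA was at -0.04 (adjusted p = 0.504) and HADHB fell by 0.21. Their ratio was 0.987, 0.939 and 0.93 in the controls and 1.03, 1.03 and 1.07 in the shFAM111B libraries (exact permutation p = 0.1), a change of 1.10-fold. The subunits were thus near equal TPM in every library. The genes lie head to head on chromosome 2 (HADHA from 26190635 to 26244726 on the minus strand, HADHB from 26243170 to 26290468 on the plus strand), with RefSeq starts 307 bases apart and windows that share 194 bases. The windows, chr2:26244583-26244882 on the minus strand and chr2:26244689-26244988 on the plus strand, are shown because one stretch of DNA lies before both genes, with capitals again for the GC box.
HADHA: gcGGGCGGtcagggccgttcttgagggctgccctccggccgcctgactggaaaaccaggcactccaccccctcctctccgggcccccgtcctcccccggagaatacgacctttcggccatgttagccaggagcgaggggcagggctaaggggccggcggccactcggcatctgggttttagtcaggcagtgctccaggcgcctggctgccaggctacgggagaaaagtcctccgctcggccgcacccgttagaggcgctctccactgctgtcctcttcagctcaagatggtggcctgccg
HADHB: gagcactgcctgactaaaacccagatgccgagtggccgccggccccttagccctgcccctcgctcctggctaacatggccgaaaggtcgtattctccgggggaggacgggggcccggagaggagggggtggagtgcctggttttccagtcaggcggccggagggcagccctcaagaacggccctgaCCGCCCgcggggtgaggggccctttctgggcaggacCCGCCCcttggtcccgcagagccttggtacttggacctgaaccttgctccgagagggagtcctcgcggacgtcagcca
HADHA also has 2 processed pseudogenes, HADHAP1 and HADHAP2, with which reads could be shared.

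Of the enzymes that process the remaining chain, ECHS1 and ECI1 rose. ECHS1, the short-chain enoyl-CoA hydratase, had 164.08, 163.91 and 165.47 TPM in the controls and 277.99, 263.04 and 306.94 TPM in the shFAM111B libraries, a log2 fold change of 0.77. ECI1, an isomerase needed for unsaturated chains, rose from 47.98, 45.8 and 55.59 TPM to 112.61, 94.25 and 122.64 TPM (log2 fold change 1.12, SE 0.114, adjusted p = 0.000102). Both kept their rise under every scaling and with the length trend removed, and both have short transcripts of 1617 and 1541 bases. ECI2, a second isomerase, went from 76.6 ± 1.91 to 67.5 ± 1.31 TPM (SD, n = 3), a fall of 0.18 that turned into 0.23 to 0.35 under median-of-ratios, upper-quartile and median-gene scaling and 0.27 with the length trend removed. DECR1, the reductase for chains with paired double bonds, had 85.45, 84.74 and 83.13 TPM against 68, 71.04 and 84.96 TPM and did not pass the test, with estimates from -0.31 to 0.35 over the scalings and shFAM111B replicate 3 within the control range. Without that library DECR1 fell by 0.28, and with the length trend removed by 0.23 (adjusted p = 0.0464). ECI2 shares 27.1% of its exon bases with C6orf201 on the opposite strand.

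HADH, the dehydrogenase for medium and short chains, fell from 29.2 ± 0.633 to 18.0 ± 0.272 TPM (SD, n = 3), or -0.67 as a log2 fold change, but was at 0.20 with the length trend removed. ACAA2, the mitochondrial thiolase, was at 119.8 ± 4.20 and 111.0 ± 4.22 TPM (SD, n = 3) and did not pass the test, with estimates from -0.24 to 0.42 over the scalings and 0.19 (adjusted p = 0.0144) with the length trend removed.

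Electrons from the dehydrogenases pass to the flavoprotein of ETFA and ETFB and from there through ETFDH to ubiquinone. ETFB rose from 318.44, 312.39 and 346.51 TPM to 519.65, 483.8 and 604.01 TPM, a log2 fold change of 0.71, under every scaling and with the length trend removed. ETFA was at 316.81, 318.59 and 322.19 TPM in the controls and at 337.33, 347.85 and 359.63 TPM in the shFAM111B libraries. ETFA rose by 0.12 with the deposited TPM (adjusted p = 0.0278), but the call was lost when control replicate 1, 2 or 3 or shFAM111B replicate 3 was left out, with an adjusted p of up to 0.0919, and the estimate was -0.11 with quantile normalization and -0.0014 with protein-coding nuclear genes rescaled, and its adjusted p was 0.0582 with the length trend removed. The ratio of ETFB to ETFA was 1.00, 0.981 and 1.07 in the controls and 1.54, 1.39 and 1.68 in the shFAM111B libraries (1.51-fold, exact permutation p = 0.1). The subunits, which form a dimer of one each, were thus at equal TPM in the controls and unequal in the shFAM111B libraries. ETFDH went from 19.7 ± 1.52 to 14.4 ± 1.44 TPM (SD, n = 3), a fall of 0.42 that became 0.08 with quantile normalization, 0.11 with median-gene scaling and 0.13 with the length trend removed.

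**Figure D3:**
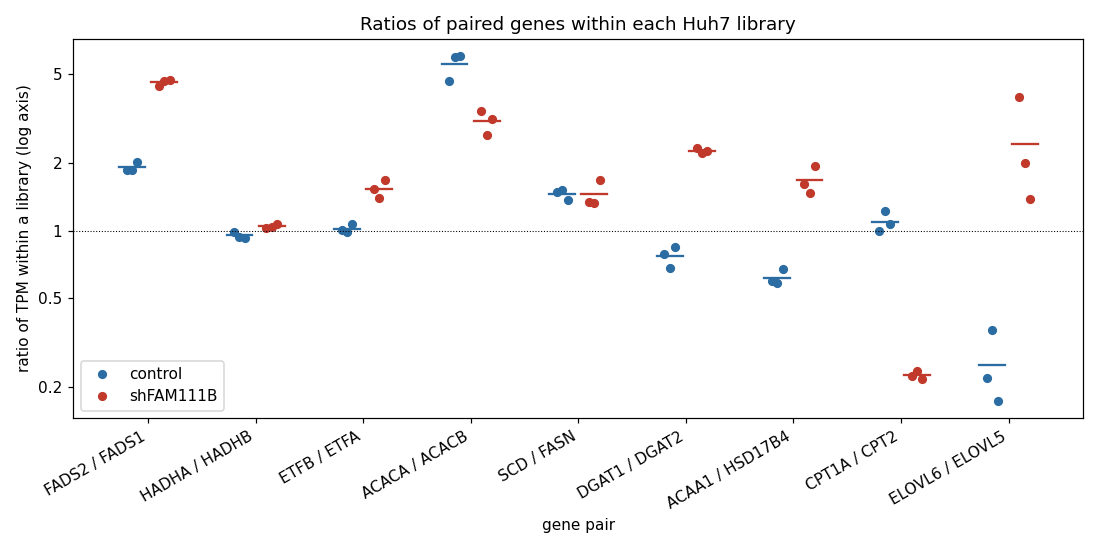
Ratio of the TPM of paired genes within each control library (blue) and each shFAM111B library (red) on a log axis, with a line at the mean of each group of 3 and a dotted line at a ratio of 1. FADS2 over FADS1, HADHA over HADHB and ETFB over ETFA were higher in all shFAM111B libraries, and ACACA over ACACB was lower. SCD over FASN overlapped between the groups. The remaining pairs were chosen after the values were seen and were not tested. Of these, DGAT1 over DGAT2, ACAA1 over HSD17B4 and ELOVL6 over ELOVL5 were higher in all shFAM111B libraries and CPT1A over CPT2 was lower.

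Of the ketone body genes, ACAT1, the mitochondrial acetoacetyl-CoA thiolase, fell from 92.5, 83.06 and 80.06 TPM to 51.68, 48.31 and 49.35 TPM (log2 fold change -0.76, SE 0.0674, adjusted p = 5.29e-05), under every scaling. BDH1, which interconverts the ketone bodies, overlapped between the groups at 5.05, 4.97 and 2.65 TPM against 5.1, 2.4 and 3.91 TPM and did not pass the test.

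Peroxisomal oxidation had 2 genes that rose, 2 that fell and EHHADH, which did not pass the test. Among all tested genes 21.1% rose and 50.9% fell. HSD17B4, the multifunctional enzyme of the middle steps for very long and branched chains, fell, while ACAA1, the thiolase of the last step, rose. HSD17B4 (ENSG00000133835, chromosome 5 from 119452443 to 119637199) had 221.25, 249.9 and 222.18 TPM in the controls and 119.83, 130.31 and 110.37 TPM in the shFAM111B libraries (log2 fold change -0.94, SE 0.0777, adjusted p = 3.92e-05). ACAA1 (ENSG00000060971, chromosome 3 from 38103129 to 38137242) had 132.34, 145.15 and 149.39 TPM in the controls and 192.98, 191.36 and 214.86 TPM in the shFAM111B libraries (log2 fold change 0.49, SE 0.0682, adjusted p = 0.000531). Both directions held under every scaling and with the length trend removed. The ratio of ACAA1 to HSD17B4, chosen after the values were seen, went from 0.598, 0.581 and 0.672 to 1.61, 1.47 and 1.95, so that the order of their levels changed. HSD17B4 made up 55.8% of the class's summed TPM in control and 33.2% in shFAM111B cells. Exons of DLEC1 on the opposite strand cover 19.7% of the exon bases of ACAA1.

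The acyl-CoA oxidases open the peroxisomal round. ACOX2, which acts on branched chains and bile acid intermediates, rose from 10.48, 13.58 and 11.01 TPM to 18.1, 20.17 and 20.52 TPM (log2 fold change 0.70, SE 0.111, adjusted p = 0.00095), under every scaling. ACOX3, also an oxidase of branched chains, went from 12.93, 13.6 and 12.58 TPM to 10.51, 7.8 and 6.97 TPM (log2 fold change -0.59, SE 0.143, adjusted p = 0.00766), and its call was lost under 4 of the 5 other scalings and with the length trend removed (-0.15, adjusted p = 0.376). EHHADH, the second multifunctional enzyme, had 17.46, 12.2 and 18.54 TPM against 11.41, 8.62 and 22.75 TPM, with shFAM111B replicate 3 above every control. Without that replicate its log2 fold change was -0.62 and passed the test, and without shFAM111B replicate 2 it was 0.03.

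Among the storage genes the acyltransferases that finish triglyceride diverged. DGAT1 (ENSG00000185000) rose from 36.13, 30.16 and 35.29 TPM to 82.41, 75.32 and 84.68 TPM (log2 fold change 1.23, SE 0.0847, adjusted p = 1.73e-05), under every scaling and by 1.71 with the length trend removed. DGAT2, which prefers newly made fatty acids, went from 45.76, 44.36 and 41.68 TPM to 35.28, 33.88 and 37.53 TPM, a fall of 0.30 (SE 0.0648, adjusted p = 0.00476) that turned into 0.04 to 0.24 under 4 other scalings and 0.42 with the length trend removed. The ratio of DGAT1 to DGAT2, chosen after the values were seen, was 0.79, 0.68 and 0.847 in the controls and 2.34, 2.22 and 2.26 in the shFAM111B libraries. DGAT2 was the more abundant in each control library and DGAT1 in each shFAM111B library. A transcript on the same strand, AC233992.1, overlaps 10.7% of the exon bases of DGAT1.

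PLIN2, the main droplet coat protein of liver cells, was the most abundant storage gene. PLIN2 (ENSG00000147872, chromosome 9 from 19108375 to 19149290) fell from 265.02, 259.84 and 269.86 TPM to 159.55, 159.33 and 153.54 TPM (log2 fold change -0.75, SE 0.0408, adjusted p = 7.36e-06), under every scaling. Its share of the class's summed TPM went from 62.9% to 46.9% while that of DGAT1 went from 8.03% to 24.0%. CIDEB, a droplet protein involved in lipoprotein loading, went from 44.72, 36.23 and 39.33 TPM to 25.55, 26.87 and 19.19 TPM (log2 fold change -0.73, SE 0.138, adjusted p = 0.00238), and its call was lost under 4 of the 5 other scalings. CIDEB shares 61.1% of its exon bases with NOP9 and 39.9% with LTB4R2 on the opposite strand, so its level is uncertain.

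The remaining storage genes did not pass the test. GPAM, the first acyltransferase of glycerolipid synthesis, was at 6.65 ± 1.46 and 5.15 ± 0.316 TPM and PNPLA3, a droplet protein, at 2.52 ± 0.797 and 2.21 ± 0.73 TPM (SD, n = 3 each). PNPLA2, the main triglyceride lipase, had 25.97, 29.51 and 31.58 TPM in the controls and 31.99, 29.77 and 31.56 TPM in the shFAM111B libraries. PNPLA2 overlapped between the groups with the deposited TPM (log2 fold change 0.10) and passed the test upwards under 4 other scalings, with estimates of 0.50 to 0.63, and with the length trend removed (0.47). GPAM was at 0.62 (adjusted p = 0.00972) once the trend was removed.

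PPARA had 5.21, 4.27 and 4.62 TPM in the controls and 2.31, 1.24 and 2.16 TPM in the shFAM111B libraries. It fell under every scaling, with an adjusted p of up to 0.0496, but its estimate was -0.12 (adjusted p = 0.582) with the trend in length and level removed, and its longest transcript, 9995 bases, is the longest of the 47 genes. Among those 47 genes it was thus the only one that passed under every scaling but not with the trend removed. The 21 genes that did both were ELOVL6, FADS2, ECHS1, ECI1, ETFB, ACOX2, ACAA1 and DGAT1, which rose, and ACLY, ELOVL2, ELOVL5, FADS1, ACSL1, ACSL3, ACSL4, CPT1A, ACADM, ACADSB, ACAT1, HSD17B4 and PLIN2, which fell. These are 8 and 13 of the 47, or 44.7% together, where 14.9% of those 12024 genes rose and 26.8% fell in that way. With the trend removed alone, 16 of the 47 rose and 18 fell, against 31.1% and 32.9% of the 14263 genes with a length.

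Summed over its genes, synthesis went from 794.3 ± 14.9 to 571.1 ± 44.5 TPM and mitochondrial oxidation from 1969 ± 46.4 to 2218 ± 136 TPM (SD, n = 3). The sum of synthesis over that of mitochondrial oxidation within a library was 0.417, 0.409 and 0.385 in the controls and 0.276, 0.28 and 0.221 in the shFAM111B libraries, or 0.641 of the control value, and between 0.615 and 0.689 with any library left out. With the TPM as deposited, both a lower synthesis sum and a higher oxidation sum entered this ratio. Dividing a library by a factor leaves the ratio unchanged but alters both sums. The median-of-ratios factors were 1.15 to 1.17 in control and 0.855 to 0.874 in shFAM111B libraries. Dividing by them raises the shFAM111B sums relative to the controls. The part of each sum in the ratio therefore depends on the scaling and was not tested. Within oxidation, ETFB rose from 16.5% to 24.1% of the oxidation sum and ECHS1 from 8.36% to 12.7%, while CPT1A made up 1.04% and 0.158%. With the geometric mean of each class in place of the sum, which weights the genes equally, the ratio was 0.894 of control, so the shift does not describe the typical gene of either class.

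**Figure D4:**
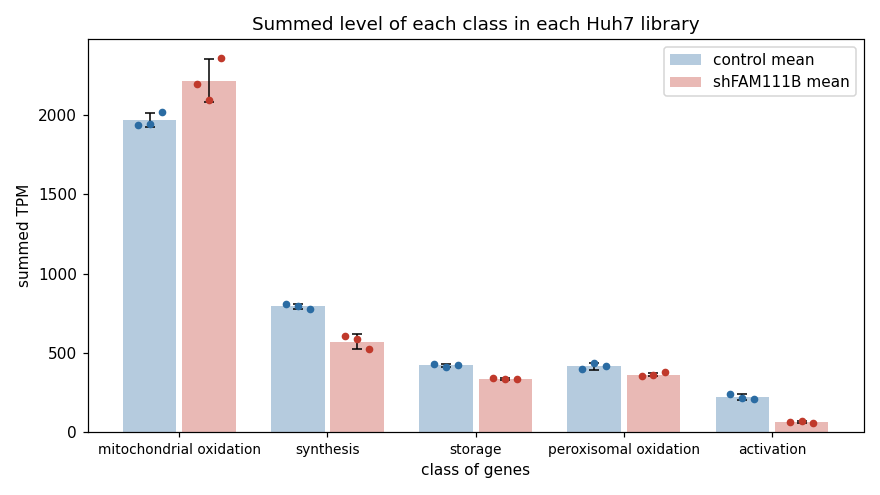
Summed TPM of the genes of each class in each library, with bars for the mean of 3 control (blue) and 3 shFAM111B (red) libraries, error bars for the SD and points for the libraries. The mitochondrial oxidation sum was 1939 to 2022 TPM in control and 2093 to 2363 TPM in shFAM111B libraries. The sums of synthesis, storage, peroxisomal oxidation and activation were lower in the latter, all with the TPM as deposited. Median-of-ratios factors were larger in the controls, so dividing by them raises the shFAM111B sums relative to the controls. These directions can therefore change with the scaling, and the sums were not tested under the others.

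A further 107 genes of the same routes, listed by function, were read from the same fit. Of these 86 were tested, 18 rose, 47 fell and 21 did not pass, and 13 rose and 27 fell under every scaling, against the 21.1% and 50.9% of all tested genes that rose and fell and the 16.4% and 32.5% under every scaling. Their median log2 fold change was -0.41, close to that of the median gene.

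The tested genes of each route that rose and fell were 5 and 7 of 17 in synthesis, 3 and 10 of 15 in mitochondrial oxidation, 2 and 7 of 12 in peroxisomes, 1 and 3 of 5 in ketone body metabolism and 3 and 10 of 16 in storage. These counts stand beside 21.1% and 50.9% of all tested genes. Among the synthesis genes, HACD1 and HACD2, which encode related dehydratases of the elongation cycle, moved in opposite directions. HACD1 rose from 3.4, 3.07 and 3.02 TPM to 11.8, 13.66 and 17.54 TPM (log2 fold change 1.86) and HACD2 fell from 83.47, 74.98 and 77.19 TPM to 20.85, 25.31 and 21 TPM (log2 fold change -1.77). ME1, the malic enzyme that supplies NADPH for synthesis, fell from 41.09, 39.03 and 39.5 TPM to 15.62, 15.34 and 13.95 TPM (log2 fold change -1.36). All of these held under every scaling and with the length trend removed, as did the changes named in the next paragraph.

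Among all tested genes 21.1% rose and 50.9% fell. Of the 7 tested genes of uptake and other acyl-CoA synthetases, 3 rose and 0 fell in limma at an adjusted p under 0.05, and 0 were lower at an unadjusted p under 0.05 either. They were SLC27A3 (log2 fold change 1.66), ACSF2 (0.93) and DBI, the acyl-CoA binding protein, which went from 926.1, 953.94 and 884.91 TPM to 1424.99, 1469.35 and 1565.89 TPM (0.69). Of the genes listed under mitochondrial oxidation CRAT, the carnitine acetyltransferase, fell by 0.96, with ECHDC3 (-1.02) and ECHDC1 (-0.77). The place of ECHDC1 in this class rests on the list alone. In peroxisomes SCP2, the thiolase and lipid carrier of the branched-chain route, fell from 195.95, 198 and 175.5 TPM to 64.18, 71.05 and 55.42 TPM (log2 fold change -1.57) and CAT, catalase, which removes the peroxide made by the oxidases, by 1.43. In ketone body metabolism BDH2 (0.40) rose under every scaling. In storage, AGPAT3 and LPIN2, which act before the DGAT step, each fell by 1.90 and FITM2, needed for droplet budding, by 1.25.

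Of 17 regulators, 14 were tested, of which 1 rose, 10 fell and 3 did not pass, where 21.1% and 50.9% of all tested genes rose and fell. PRKAA1, a catalytic subunit of AMP-activated kinase, fell from 99.29, 80.67 and 76.03 TPM to 15.25, 14.59 and 15.94 TPM (log2 fold change -2.40), and MLXIPL, the carbohydrate-responsive factor of lipogenesis, from 17.87, 15.37 and 14.31 TPM to 2.89, 2.85 and 2.85 TPM (-2.12). PPARG (-1.38), a receptor for fatty acid ligands, SREBF1 (-0.95) and SREBF2 (-1.05), which encode the sterol-regulated activators of lipid synthesis, INSIG1 (-0.79), which retains them in the endoplasmic reticulum, and RXRA (-0.71), the partner of PPAR receptors, also fell under every scaling, though RXRA was at 0.13 (adjusted p = 0.104) with the trend removed. NR1H3, the oxysterol receptor that drives lipogenic genes, rose from 27.8 to 42.1 TPM on average (log2 fold change 0.59), under every scaling. PPARD (-0.83) and PRKAA2 (-0.80) fell with the deposited TPM but not under every scaling, as did SCAP (-0.24), whose estimate was 0.30 with median-gene scaling, and INSIG2, MLX and MID1IP1 did not pass the test. PPARGC1A and PPARGC1B were under 1 TPM on average and THRSP was listed at 0 in every library, so these were not tested.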

How the data were processed

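Control and shFAM111B libraries of Huh7 (3 each) were compared. Hep3B was not analysed here. TPM were deposited by the authors for each library, and the submitters' processing notes name RSEM, DESeq2 and hg38 without giving their roles. The labels describe a stranded poly(A) mRNA kit, while the paper gives a TruSeq kit. The deposited group means and the authors' own comparison (fold change, p-value, adjusted p-value) were not used. Because only TPM were used, no count test was run and the depth of each library is unknown.

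Genes reaching 1 TPM in 3 or more libraries (14394) were tested on log2(TPM + 1) with limma 3.58.1 (lmFit, eBayes with trend) under R 4.3.3, with Benjamini-Hochberg adjustment over all of them. The pseudocount of 1 understates the fold change of low genes. A rise or fall needs an adjusted p under 0.05 with no fold limit. The 6 scalings were the deposited TPM, median-of-ratios, upper-quartile, quantile normalization, centring on the median gene, and protein-coding nuclear genes rescaled to one fixed total. The trend with level and with the longest GENCODE v29 transcript was removed by loess (span 0.75) for 14263 genes. GENCODE v29 (GRCh38) gave gene positions and held 96.3% of the identifiers, and RefSeq gave the promoter windows. No library pair shared more than 0.89% of its values.

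The genes, lists and pairs were chosen with earlier results of these data known. This holds also for the 5 pairs with a permutation p, which were set before the present fit, and the other 4 pairs were added after its values were seen and were not tested. All 47 genes are named, with full statistics for at most 4 per class, those with the largest change at a mean of at least 5 TPM. Of the 107 further genes, 3 per class by the same criteria with groups that do not overlap, and every tested regulator, are named. SLC25A20, SLC22A5 and CPT1B are also named, chosen after their values were seen. Some genes that this rule selects are not reported here and stay in the counts. Replicate numbers did not pair the samples. The fit was also run on simulated data. Of 100 genes changed by 1.5 on the log2 scale 95 were recovered, and of 100 changed by 0.75, 68. In that run 14 unchanged genes of 14394 were called. In the deposited data 3044 genes rose and 7326 fell. Recovery with that many changes, or with a median gene at -0.36, was not tested. Python 3.11.15 with numpy 2.4.6, pandas 2.3.3 and matplotlib 3.10.9 made the tables and figures.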

Additional observations from a re-analysis of the deposited data

How the results depend on the processing

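Among the tested genes 3044 rose and 7326 fell, and the counts moved with the scaling and with a fold limit. The number that rose was 4990 with median-of-ratios scaling, 4938 with upper-quartile scaling, 4675 with quantile normalization, 5995 with median-gene centring, and 981 or 974 with a 2-fold limit at P or adjusted p under 0.05. The number that fell was 4225 with median-gene centring, 4696 with the length and level trend removed, and 3409 or 3406 with the 2-fold limit. With each library left out, 2550 to 2846 rose and 6329 to 7281 fell. Of the 47 genes, 14, 14, 20 and 16 rose with median-of-ratios, upper-quartile, median-gene scaling and the trend removed, and 17, 17, 14 and 18 fell. With the 2-fold limits 3 and 3 rose and 9 and 9 fell, and with each library left out 8 to 9 rose and 28 to 30 fell. The class medians relative to the median gene were -0.61 without a filter and -0.46 with quantile normalization for synthesis, -1.57 without a filter and -0.93 with the trend removed for activation, and -0.25, 0.19 and 0.44 (no filter, quantile normalization, trend removed) for storage. For mitochondrial oxidation the median was -0.22 without a filter, 0.14 with a pseudocount of 0.1, 0.14 with either median-of-ratios or upper-quartile scaling, -0.0815 with quantile normalization, 0.18 with protein-coding nuclear genes rescaled and 0.12 with the trend removed. With each library left out these medians were -0.36 to -0.22, -1.34 to -1.14, -0.0203 to 0.13 and 0.036 to 0.20 in that order, and -0.10 to 0.42 for peroxisomal oxidation. The geometric mean, added after the data were seen, gave 0.894 for the ratio of synthesis to oxidation, and leaving out each library gave 0.615 to 0.689. The fall of FAM111B was past the threshold in each alternative run that tested it, at -2.25 to -2.15 with a library left out. The run that needed at least 1 TPM in every library did not test it. Single genes of the 47 took the sign opposite to that with the deposited TPM, given here with their log2 fold changes. With the length and level trend removed these were ACACA (0.27), ACSL5 (0.12), CPT2 (0.50), HADH (0.20), ECI2 (0.27), ETFDH (0.13), BDH1 (0.38), EHHADH (0.42), ACAA2 (0.19), DGAT2 (0.42), GPAM (0.62) and PNPLA3 (0.16). With protein-coding nuclear genes rescaled these were ACACB (-0.088), ETFA (-0.0014) and PNPLA2 (-0.022). With median-of-ratios scaling these were ELOVL1 (0.029), CPT2 (0.14), ACADS (0.14), ACADVL (0.40), HADHA (0.069), ECI2 (0.24), DECR1 (0.24), BDH1 (0.21), EHHADH (0.15), ACAA2 (0.31), DGAT2 (0.12), GPAM (0.065) and PNPLA3 (0.16). With upper-quartile scaling these were ELOVL1 (0.019), CPT2 (0.13), ACADS (0.13), ACADVL (0.39), HADHA (0.058), ECI2 (0.23), DECR1 (0.23), BDH1 (0.20), EHHADH (0.14), ACAA2 (0.30), DGAT2 (0.11), GPAM (0.056) and PNPLA3 (0.15). With median-gene centring these were ELOVL1 (0.14), ACSL5 (0.13), CPT2 (0.27), ACADS (0.27), ACADVL (0.51), HADHA (0.18), HADHB (0.048), ECI2 (0.35), DECR1 (0.35), ETFDH (0.11), BDH1 (0.41), EHHADH (0.28), ACAA2 (0.42), DGAT2 (0.24), GPAM (0.24) and PNPLA3 (0.40). With quantile normalization these were ACSL5 (0.10), CPT2 (0.23), ACADS (0.24), ETFA (-0.11), ETFDH (0.075), BDH1 (0.29), EHHADH (0.25), DGAT2 (0.041), GPAM (0.21) and PNPLA3 (0.16). Leaving out each library gave log2 fold changes of -0.076 to 0.091 for ACACB, -0.046 to 0.028 for ACADVL, -0.36 to 0.10 for BDH1, -0.62 to 0.029 for EHHADH and -0.32 to 0.040 for PNPLA3, which crossed 0. Correlations of same-numbered deviations were 0.054, 0.035 and 0.091, so the numbers were not taken as pairs. With the replicate block 3022 genes rose and 7198 fell, and all 47 genes kept direction and side of the threshold. TPM keep no depth, so counting error is unknown, and the causes of these moves were not tested.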
